A study of Homo sapiens with 8 samples.

Results

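The genes described here are 35 integrin and focal adhesion genes, taken as a named list from the 59385 rows of a gene count matrix made from immortalized human cardiac fibroblasts (IHCF). They comprise 11 integrin alpha subunits, 4 integrin beta subunits and 20 cytoplasmic adhesion proteins. Of the 35 genes, 34 passed the filter on low counts and were among the 16228 genes tested. The remaining gene, ITGA8, had 0 counts in all 8 libraries, which allows up to 3 counts in a library, or between 0.0942 and 0.255 CPM. CPM is the count scaled to the library's effective size, so that libraries of different depth can be compared.

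Cells carried a lentiviral shRNA against eIF4G2 (the product of EIF4G2) or a scramble shRNA with no target. Every culture was serum-starved for at least 6 h and then given TGF-beta for 24 h, so no group here is without TGF-beta. From both cell types, poly(A)-enriched RNA of whole cells (total RNA) and of polysomes (mRNA bound by several ribosomes) was sequenced. The 4 groups analysed here are therefore knockdown polysomal, scramble polysomal, knockdown total and scramble total RNA, with 2 libraries labelled as biological replicates in each. The series' design text mentions triplicates, whereas every value and p-value here rests on 2 libraries a group. The labels do not say how many hairpins or transduced pools were used, nor whether equal replicate numbers share a culture, and a single immortalized line was studied. In bulk RNA, fewer cells of one state and less RNA per cell cannot be told apart.

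The libraries held between 18043714 and 24590030 counts assigned to genes. In each of the 4 groups the replicates differed by more than counting error, least so in scramble total RNA. Mitochondrially encoded genes took 3.88% to 4.21% of the counts in total RNA. In polysomal RNA they took 14.5% and 16.3% in knockdown cells, and 7.12% and 17.5% in scramble cells. The 10 fibroblast markers summed to between 6133 and 7015 CPM over all libraries, chiefly from VIM and COL1A1. The proteoglycan genes DCN and LUM were at no more than 0.434 and 9.51 CPM and PDGFRA, a receptor of fibroblasts, at no more than 2.16 CPM. Markers of other cell types were not all low. Cardiomyocyte markers summed to at most 1.15 CPM, with MYH6 and MYH7 at 0 in all libraries, and endothelial and leukocyte markers to at most 20.3 CPM. Mural cell markers summed to between 77.8 and 143 CPM in polysomal RNA and between 385 and 479 CPM in total RNA. The 8 epithelial markers, chiefly KRT8 and KRT18, summed to between 2243 and 3210 CPM in polysomal RNA and between 1176 and 1434 CPM in total RNA, with EPCAM at no more than 2.38 CPM and CDH1 (E-cadherin) at no more than 0.165 CPM. The part of these markers in the results below was not tested.

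Integrins are heterodimers of an alpha and a beta subunit that bind matrix proteins outside the cell and, through talin and kindlin, the actin cytoskeleton inside it. The alpha subunit largely sets the ligand: collagens, laminins, or proteins such as fibronectin that carry an RGD motif. Clustered integrins build focal adhesions, in which the kinases FAK and SRC signal through paxillin and p130Cas, the ILK-PINCH-parvin complex couples integrins to actin, and zyxin-family LIM proteins gather where tension is high. In cardiac fibroblasts, adhesions grow as TGF-beta turns the cells into myofibroblasts. eIF4G2 (also called DAP5) resembles the scaffold factor eIF4G but lacks its binding site for the cap-binding protein eIF4E, and supports translation initiation on a subset of mRNAs.

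Because initiation is the step that eIF4G2 serves, the sequence around the annotated start codon is shown for some members. They are among those with the most extreme polysomal-to-total values and those with the lowest knockdown values in polysomal RNA. Each sequence runs from 9 bases before the start codon to 3 after it, with the start codon in capitals. The sequences are from the GENCODE v29 transcript (GRCh38). The first 4 genes were higher in polysomal than in total RNA.
PDLIM7: gccggcatcATGgat
TGFB1I1: acctcgcacATGcca
RSU1: gtgcagaccATGtcc
TES: cgcgttaacATGgac
The next set was lower in polysomal than in total RNA in both cell types.
ITGA7: gatcgtcccATGgcc
TNS3: agtcccaccATGgag
CRK: gaggcagccATGgcg
ITGB8: ttttgcattATGtgc
The last pair had among the lowest knockdown values in polysomal RNA, and ITGA7, shown above, and LPP, not shown, lay between them.
ILK: gacgctgctATGgac
FERMT2: gaaggagccATGgct
A purine at position -3 stood in both polysome-high and polysome-low genes, and ITGA7 and TGFB1I1 both lacked it. Over all tested members, 28 of 34 had a purine at position -3 (82.4%), and 86.0% of all tested protein-coding genes did. A purine at -3 together with a G right after the start codon was found in 52.9% of the members and 45.4% of all genes.

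EIF4G2 itself was lower in every knockdown library. It stood at 244 and 335 CPM in knockdown polysomes, against 875 and 877 CPM in scramble polysomes. In total RNA it stood at 293 and 327 CPM in knockdown cells, against 794 and 785 CPM in scramble cells. The log2 fold change was -1.60 ± 0.18 (SE) in polysomal RNA (adjusted p = 0.0276, edgeR's quasi-likelihood test) and -1.35 ± 0.18 in total RNA (adjusted p = 0.0504). DESeq2's Wald test gave adjusted p-values of 2.97e-14 and 4.05e-10 for the same 2 comparisons. With 2 libraries a group, the fit had 4 residual degrees of freedom.

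Per kilobase of transcript, the most abundant members in total RNA were ITGB1, the beta subunit shared by most fibroblast integrins, ZYX (zyxin) and PDLIM7 (enigma). ITGB1 had 165 ± 20.1 CPM per kb in knockdown cells and 181 ± 3.24 in scramble cells (SD, n = 2 each). ZYX had 146 ± 6.70 and PDLIM7 135 ± 16.5 CPM per kb in knockdown total RNA, while in scramble total RNA the values were 117 ± 1.13 and 101 ± 3.68. In polysomal RNA the order differed. PDLIM7 and ZYX led with 299 CPM per kb each in knockdown polysomes, and with 341 ± 66.6 and 281 ± 36.8 in scramble polysomes, a gap smaller than the spread. TGFB1I1 (Hic-5) followed at 138 and 139 CPM per kb in knockdown and scramble polysomes, next to ITGB1 at 129 and 132.

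The first comparison asks which adhesion mRNAs were over- or under-represented on polysomes relative to the whole cell. Most integrin subunits and FAK-SRC signalling genes were lower in polysomal RNA. Under TMM scaling most zyxin-family and ILK-complex genes were called higher, of which LIMS1, PARVA and TRIP6, and ZYX in knockdown cells, turned below 0 under scaling by library totals alone. In knockdown cells 8 members were called higher and 17 lower in polysomal RNA, beside 28.9% of all tested genes called higher and 34.1% called lower. In scramble cells 8 members were called higher and 18 lower, beside 29.7% and 33.7% of all genes. The median log2 fold change, polysomal over total, was -0.77 in knockdown cells and -0.62 in scramble cells for the members, and -0.16 and -0.17 for all genes. These values are relative to TMM scaling, which sets typical genes near 0. Library totals alone moved all genes by -1.05 in knockdown and -0.996 in scramble cells. The share of calls that were higher was then 16.1% and 19.4%, against 45.8% and 46.9% under TMM, and of the members 0 and 3 were called higher and 26 lower in each cell type. ITGAV, ITGA2, ITGB1, FERMT2, VASP and PDLIM5, which edgeR called in neither cell type under TMM, were then called lower in both. PTK2 and ITGA10 were then called lower in knockdown cells too, and ITGA1 and ILK in scramble cells.

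**Figure D1:**
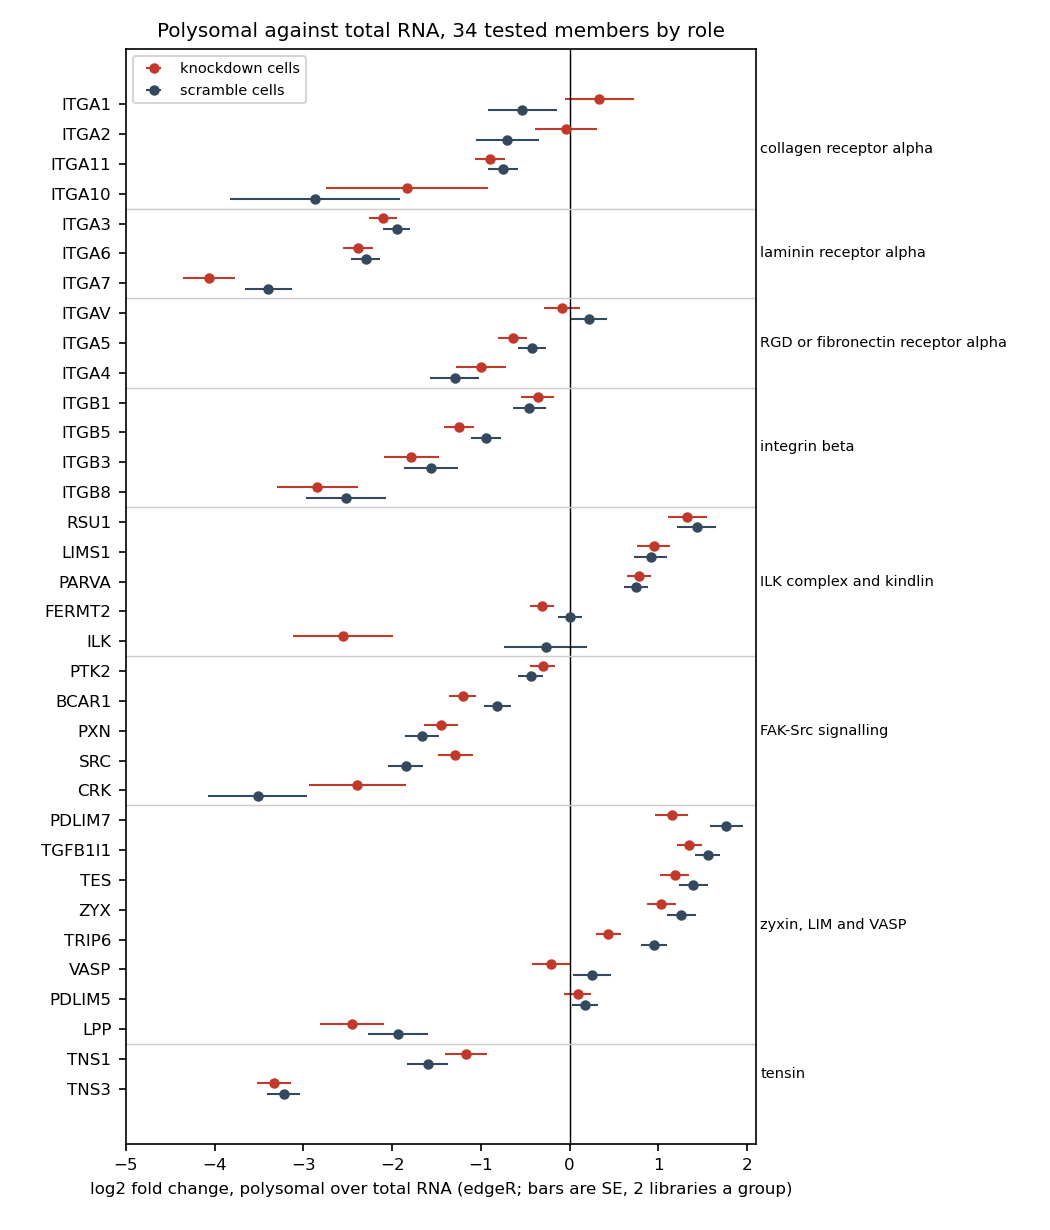
Log2 fold change of polysomal over total RNA for the 34 tested members, grouped by role, in knockdown cells (red) and scramble cells (blue); points are edgeR estimates and bars their SE, with 2 libraries a group. The laminin receptor subunits, CRK and TNS3 lie far below 0 in both cell types, and PDLIM7, TGFB1I1, TES, RSU1 and ZYX lie above it, though ZYX in knockdown cells was below 0 under library totals alone.

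The laminin receptor alpha subunits were all called lower on polysomes in both cell types. ITGA7, the laminin-binding subunit best known from muscle (chr12:55684568-55716043, minus strand), had 2.97 and 1.44 CPM in knockdown polysomes, against 36.9 and 38.7 CPM in knockdown total RNA. In scramble cells it had 5.80 and 4.04 CPM on polysomes, against 53.3 and 50.6 CPM in total RNA. The log2 fold changes were -4.06 ± 0.29 in knockdown cells (adjusted p = 1.36e-06, edgeR) and -3.40 ± 0.26 in scramble cells (adjusted p = 1.86e-06, edgeR). ITGA3, which pairs with beta 1 as a laminin-332 and laminin-511 receptor, had 94.0 and 84.3 CPM in knockdown polysomes, against 355 and 411 CPM in knockdown total RNA. Its scramble values were 85.7 and 97.7 CPM on polysomes, against 357 and 352 CPM in total RNA. ITGA6, the alpha 6 laminin receptor, had log2 fold changes of -2.38 in knockdown cells and -2.30 in scramble cells. For these 3 genes every polysomal library lay below every total library. Of all 16228 tested genes, 44.9% in knockdown cells and 46.1% in scramble cells did the same.

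The collagen receptor subunits were less uniform. ITGA11, the main fibrillar-collagen receptor subunit of fibroblasts, had 103 and 99.0 CPM in knockdown polysomes, against 160.1 and 217 CPM in knockdown total RNA. Scramble polysomes held 96.8 and 113 CPM, against 179 and 175 CPM in scramble total RNA. It was called lower in both cell types, with log2 fold changes of -0.90 ± 0.17 and -0.76 ± 0.17 for knockdown and scramble cells. ITGA1 and ITGA2, receptors for collagen IV and collagen I, were present at under 12 CPM and were not called in either cell type under TMM scaling. ITGA10 was the scarcest tested member, with 4 and 8 counts in knockdown polysomes, 0 and 8 in scramble polysomes, and 39 to 64 in the total libraries. It was called lower in scramble cells (-2.87 ± 0.96, adjusted p = 0.0227, edgeR) and not called in knockdown cells (-1.83 ± 0.91), a difference that itself was not called (adjusted p = 0.925, edgeR). The scramble call was lost when any 1 of the 4 total libraries or scramble polysomal replicate 1 was left out, and without that polysomal library the value was -1.95. Without scramble polysomal replicate 2 the remaining scramble polysomal library had 0 counts and the fitted value was -8.38.

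Among the RGD and fibronectin receptors, ITGA5, the classical fibronectin receptor subunit, and ITGA4, which binds fibronectin and VCAM1, were called lower on polysomes. ITGA5 had 189 and 184 CPM in knockdown polysomes, against 273 and 308 CPM in total RNA of the same cells. In scramble cells it had 176 and 226 CPM on polysomes, against 268 and 270.3 CPM in total RNA. The log2 fold changes of ITGA5 were -0.64 ± 0.16 and -0.42 ± 0.16 in knockdown and scramble cells, and ITGA4, at 9.86 to 12.6 CPM on polysomes and 16.1 to 30.2 CPM in total RNA, had -1.30 ± 0.28 in scramble cells. The ITGA4 call in knockdown cells was lost without knockdown total replicate 2, at a value of -0.51. ITGA5 was no longer called in scramble cells without either scramble total library or without scramble polysomal replicate 1, and without scramble polysomal replicate 2 its value was -0.67. ITGAV, the alpha V subunit that binds RGD ligands including latent TGF-beta, was not called under TMM scaling, at -0.09 ± 0.20 and 0.22 ± 0.20. With library totals alone ITGAV was called lower in both cell types, at -1.16 in knockdown and -0.79 in scramble cells (adjusted p = 0.00061 and 0.0059, edgeR).

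The beta subunits ITGB3, ITGB5 and ITGB8, partners of alpha V, were called lower on polysomes in both cell types. ITGB8 showed the greatest difference of these, -2.84 ± 0.46 in knockdown and -2.52 ± 0.45 in scramble cells, at 0.595 to 1.96 CPM on polysomes and 7.17 to 10.7 CPM in total RNA. In knockdown cells ITGB8 was at -4.08 without knockdown polysomal replicate 1 and at -2.40 without replicate 2. ITGB5 had 95.0 and 67.9 CPM in knockdown polysomes, against 197 and 189 CPM in total RNA of the same cells. ITGB3 was lower by 1.78 and 1.56 on the log2 scale in knockdown and scramble cells, at 2.08 to 3.14 CPM on polysomes. A readthrough gene annotated on the same strand covers 51.6% of the ITGB3 exon bases, so its counts are uncertain. ITGB1 had 549 and 425 CPM in knockdown polysomes, against 571 and 679 CPM in knockdown total RNA. Its scramble values were 548 and 450.5 CPM on polysomes, against 692 and 675 CPM in total RNA. Under TMM scaling the difference for ITGB1 missed the threshold in knockdown cells (-0.36 ± 0.19, adjusted p = 0.114, edgeR) and in scramble cells (-0.45 ± 0.19, adjusted p = 0.0527, edgeR). DESeq2 called it lower in scramble cells at an adjusted p of 0.0148.

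All 5 FAK-SRC signalling genes were below 0 on polysomes in both cell types. edgeR called 4 of 5 lower in knockdown cells and 5 of 5 in scramble cells, and DESeq2 called all 5 lower in both. CRK, an SH2-SH3 adaptor that binds phosphorylated p130Cas and paxillin, had 1.55 and 1.70 CPM in knockdown polysomes, against 4.81 and 12.3 CPM in knockdown total RNA. Scramble polysomes held 1.57 and 0.416 CPM of CRK, against 12.4 and 10.8 CPM in scramble total RNA. Its log2 fold changes were -2.39 ± 0.54 and -3.52 ± 0.56 for knockdown and scramble cells, on 7 to 29 counts a polysomal library. In scramble cells CRK ranged from -4.89 to -2.94 over the fits without 1 library, and in knockdown cells it was no longer called without knockdown total replicate 2, at -1.59. SRC, the kinase that phosphorylates FAK and p130Cas, was at -1.29 ± 0.20 and -1.85 ± 0.20. PXN (paxillin), the adhesion scaffold, was at -1.45 ± 0.19 and -1.67 ± 0.19, and an antisense gene covers 12.3% of its exon bases. BCAR1 (p130Cas) was at -1.21 ± 0.15 and -0.82 ± 0.15. PTK2, which encodes FAK, differed least, at -0.31 ± 0.14 in knockdown cells, where DESeq2 but not edgeR called it lower. In scramble cells it was at -0.44 ± 0.14 and was called (adjusted p = 0.018, edgeR) unless either scramble total library was left out.

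In the ILK complex, RSU1, LIMS1 (PINCH1) and PARVA (alpha-parvin) were called higher on polysomes in both cell types under TMM scaling, though LIMS1 and PARVA turned below 0 under library totals alone. RSU1, which binds PINCH1, had 194 and 280.0 CPM in knockdown polysomes, against 97.0 and 92.3 CPM in knockdown total RNA. Scramble polysomes held 211 and 319 CPM of RSU1, against 97.4 and 99.0 CPM in scramble total RNA. The log2 fold changes of RSU1 were 1.32 ± 0.22 and 1.43 ± 0.22 for knockdown and scramble cells. PARVA had 231 and 239 CPM in knockdown polysomes against 137 and 136 CPM in knockdown total RNA, a log2 fold change of 0.78 ± 0.14. LIMS1 was at 0.95 ± 0.19 and 0.91 ± 0.19, and at 0.58 in scramble cells without scramble polysomal replicate 2. FERMT2 (kindlin-2), which binds integrin beta tails, was called in neither cell type by edgeR under TMM scaling, at -0.31 ± 0.14 and 0.00 ± 0.13. DESeq2 called FERMT2 lower in knockdown cells and not in scramble cells. ILK, the pseudokinase at the centre of the complex, was lower on polysomes in knockdown cells (-2.56 ± 0.56, adjusted p = 0.0023, edgeR) and not called in scramble cells (-0.27 ± 0.47, adjusted p = 0.633, edgeR). In knockdown cells it ranged from -3.83 to -1.91 over the fits without 1 library. Those values are under TMM scaling. With library totals alone ILK was called lower in both cell types, at -3.64 in knockdown and -1.26 in scramble cells (adjusted p = 0.00031 and 0.041, edgeR). The test of the ILK difference between the cell types is given with the ratio below.

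Of the 8 genes in the zyxin, LIM-domain and VASP group, edgeR called 5 higher on polysomes in both cell types under TMM scaling. Under library totals alone, though, TRIP6, and ZYX in knockdown cells, were below 0. TGFB1I1, a paxillin relative induced by TGF-beta (chr16:31471585-31477960, plus strand), had 247 and 249 CPM in knockdown polysomes, against 103 and 91.6 CPM in knockdown total RNA. Its scramble values were 243 and 259 CPM on polysomes, against 83.4 and 87.4 CPM in total RNA. PDLIM7, a PDZ-LIM protein of actin bundles, had 463 and 548 CPM in knockdown polysomes, against 248 and 208 CPM in knockdown total RNA. In scramble cells it had 497 and 656 CPM on polysomes, against 166 and 174 CPM in total RNA. In knockdown and scramble cells the log2 fold changes were 1.35 ± 0.14 and 1.56 ± 0.14 for TGFB1I1, and 1.15 ± 0.18 and 1.76 ± 0.19 for PDLIM7. TES (testin), which binds zyxin, was at 1.18 ± 0.17 and 1.40 ± 0.17. ZYX was at 1.03 ± 0.16 and 1.26 ± 0.16, and TRIP6, a zyxin relative, at 0.44 ± 0.14 and 0.95 ± 0.14. The TRIP6 call in knockdown cells was lost when any library but knockdown total replicate 1 was left out, with a value of 0.27 without knockdown total replicate 2. VASP, an actin polymerase of the leading edge, and PDLIM5 (ENH) were not called under TMM scaling.

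LPP, another zyxin relative, was lower on polysomes. It had 8.98 and 11.0 CPM in knockdown polysomes, against 47.8 and 61.1 CPM in knockdown total RNA. Scramble polysomes held 25.3 and 9.68 CPM of LPP, against 69.5 and 64.6 CPM in scramble total RNA. Its log2 fold changes were -2.45 ± 0.36 and -1.93 ± 0.34 for knockdown and scramble cells. The tensins, which tie integrin tails to actin, were both lower on polysomes in both cell types. TNS3 had 9.05 and 11.0 CPM in knockdown polysomes against 89.9 and 112 CPM in knockdown total RNA (log2 fold change -3.33 ± 0.19), and 13.5 and 11.7 CPM in scramble polysomes against 123 and 113 CPM in scramble total RNA (-3.22 ± 0.18). TNS1 was at -1.17 ± 0.23 and -1.60 ± 0.23.

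The polysomal-to-total difference ran with transcript length across the transcriptome. Over 12679 protein-coding genes, Spearman's rho between the log2 fold change and transcript length was -0.56 in knockdown cells and -0.60 in scramble cells. Over the 34 members it was -0.37 and -0.53. The genes share the same libraries and are not independent, so these values describe the data only. All tested genes with transcripts under 2000 nt had a median of 1.21 in knockdown and 1.36 in scramble cells, and those of 6000 nt or more a median of -1.51 and -1.56. The members were long, with a median transcript of 4154.5 nt, against 3224 nt for all genes. Set beside genes of the same length class, 14 of 34 members in knockdown cells and 15 of 34 in scramble cells stood above their class median.

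Some roles lay away from their length class. All 3 laminin receptor subunits were below it, by a median of 1.44 in knockdown and 1.27 in scramble cells. Of the 5 FAK-SRC genes only PTK2 was above its class median, in both cell types. ITGA7 and CRK are similar in transcript length to RSU1 (4120, 3880 and 3919 nt), and lay at opposite ends of the polysomal-to-total values. PARVA, with a transcript of 8719 nt, was higher on polysomes under TMM scaling (below 0 under library totals alone), where genes of its class had a median of -1.51 and -1.56 in knockdown and scramble cells. TGFB1I1, PDLIM7, TRIP6 and LIMS1, all under 2000 nt, lay between the quartiles of their class.

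**Figure D2:**
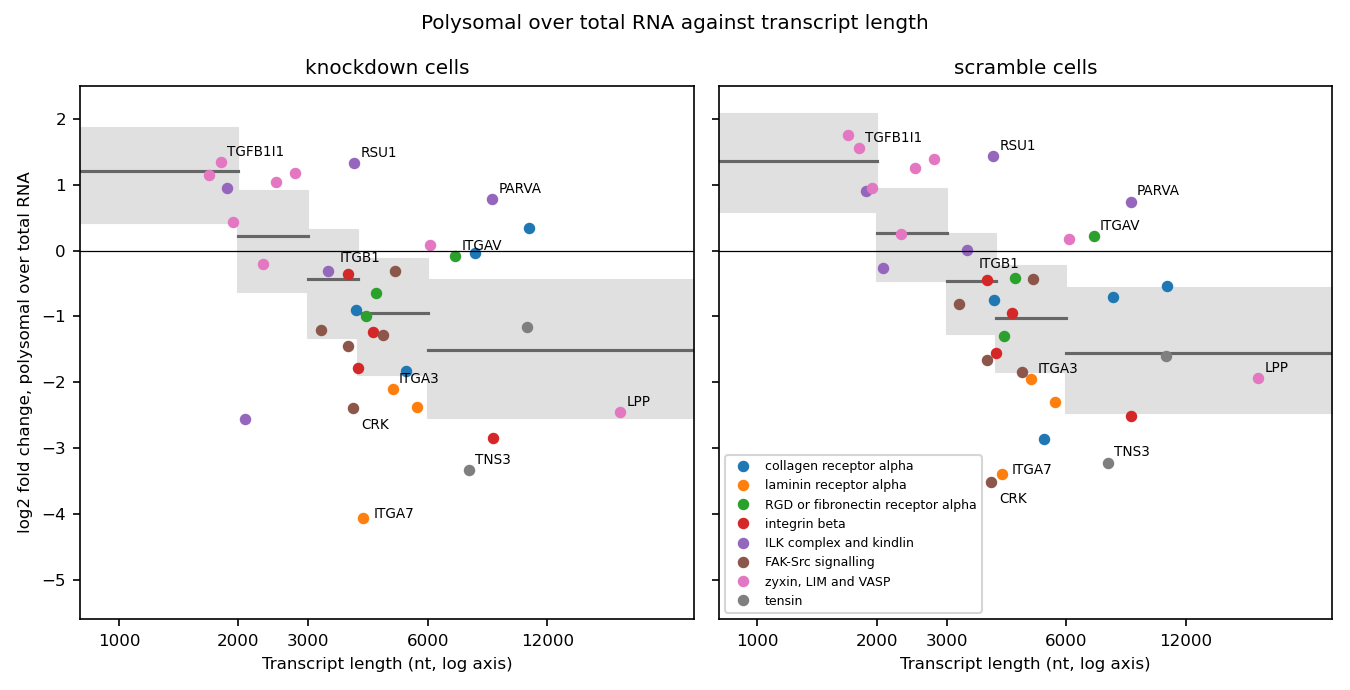
Log2 fold change of polysomal over total RNA against transcript length (nt, log axis) for the 34 tested members, coloured by role, in knockdown cells (left) and scramble cells (right). Grey bands span the quartiles and grey lines the medians of all tested protein-coding genes in 5 length classes; ITGA7, CRK and TNS3 lie below their bands and RSU1 and PARVA above.

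The next comparison asks what the knockdown did to these mRNAs in the whole cell. In total RNA no member was called by edgeR, where 0 of all 16228 genes were called, or 0%. DESeq2 called no member either, beside 0.239% of all genes. At an unadjusted p under 0.05, edgeR picked 2 of the 34 members and 598 of all genes, or 3.68%. Of the members 17 were above 0, beside 52.8% of all genes, and 17 below, with a median log2 fold change of 0.0030, against 0.019 for all genes. The members' median was 0.12 without knockdown total replicate 1 and -0.11 without replicate 2. Knockdown and scramble libraries did not overlap for 10 members that were higher and 8 that were lower, where 24.8% and 23.1% of all genes did the same.

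The members with the smallest p-values in total RNA were TRIP6, PDLIM7 and BCAR1. TRIP6 had 132 and 108 CPM in knockdown total RNA, against 93.7 and 91.7 CPM in scramble total RNA. PDLIM7 had 248 and 208 CPM in knockdown cells, against 166 and 174 CPM in scramble cells, and BCAR1 252 and 242 CPM, against 200.2 and 196 CPM. All 3 genes were higher in each knockdown library than in each scramble library. The log2 fold changes were 0.37 ± 0.14 for TRIP6, 0.42 ± 0.18 for PDLIM7 and 0.32 ± 0.15 for BCAR1, each with an adjusted p of 1 (edgeR). Without knockdown total replicate 1 the values of TRIP6 and PDLIM7 were 0.21 and 0.29, and without knockdown total replicate 2 they were 0.50 and 0.54. ZYX, at 376 and 353 CPM in knockdown cells against 290.3 and 294 CPM in scramble cells, and TES had similar values (0.32 ± 0.16 and 0.31 ± 0.17) and were not called.

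Transcript length ran with the knockdown difference in total RNA as well. Spearman's rho was -0.45 over the 34 members and -0.38 over all protein-coding genes. The 8 members with transcripts under 3000 nt were all above 0, except that ILK, at 0.02, turned below 0 under library totals alone. Among all genes in the 2 classes under 3000 nt, 2235 of 2959 and 1809 of 2899 were above 0. Of the 9 members with transcripts of 6000 nt or more, 2 were above 0. TNS1 had 26.6 and 37.1 CPM in knockdown cells, against 45.8 and 41.0 CPM in scramble cells.

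**Figure D3:**
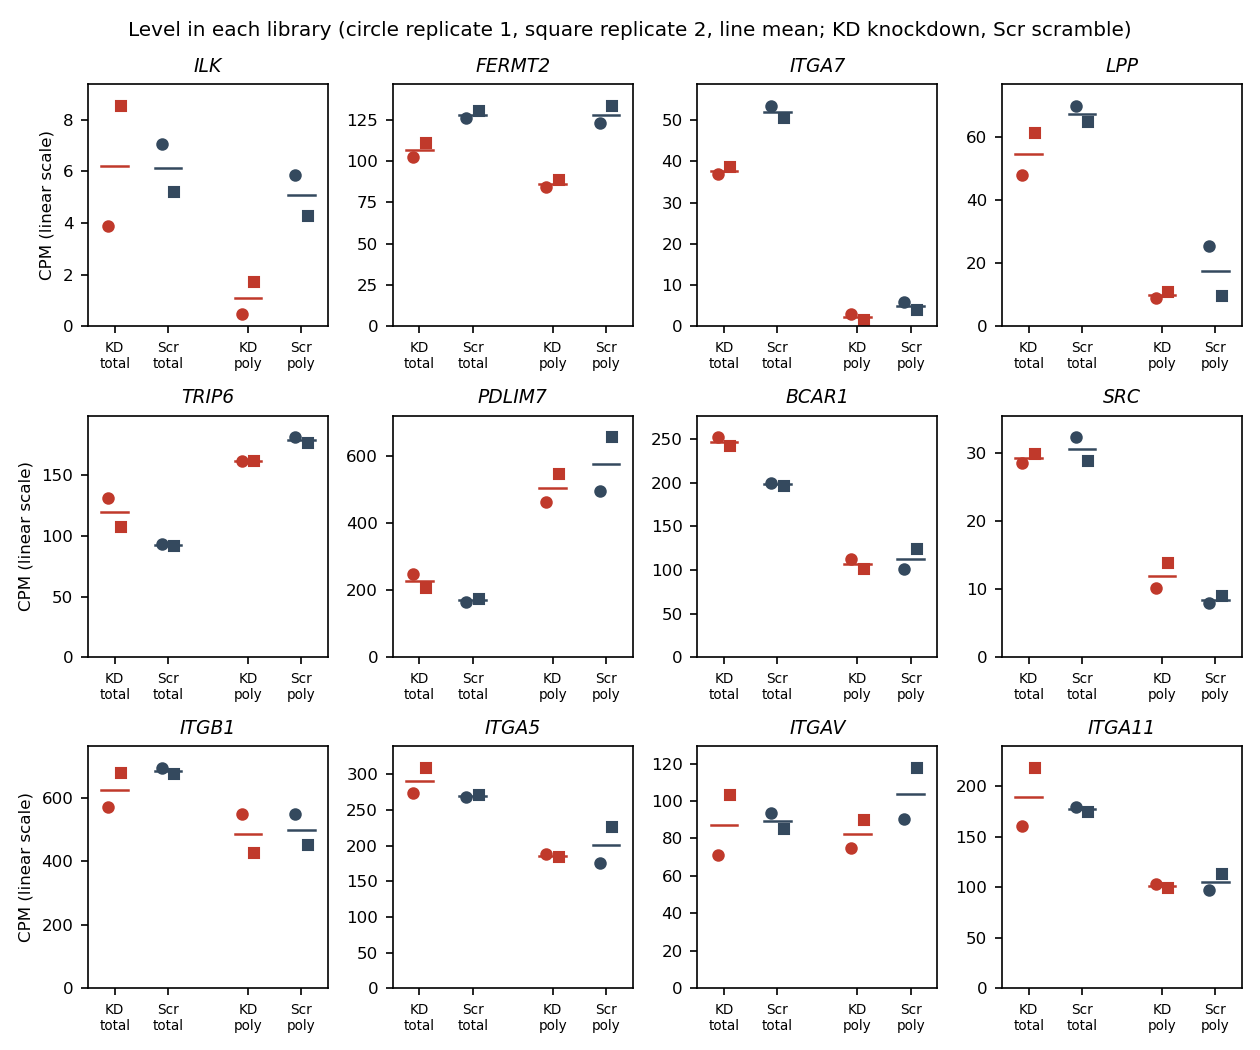
Level in CPM (linear scale from 0) of 12 members in each library, with knockdown (KD, red) left of scramble (Scr, blue), for total RNA and then polysomal RNA (poly); circles and squares are replicates 1 and 2 and lines the group means. FERMT2, ITGA7 and ILK are lower in both knockdown polysomal libraries than in both scramble ones, while ITGB1 and ITGA5 overlap there.

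In polysomal RNA the knockdown differences were again small for most members. edgeR called 0 of the 34 members, beside 2 of all tested genes, or 0.0123%. DESeq2, fitted on all 8 libraries, called 3 members lower, FERMT2, ITGA7 and ILK, beside 0.955% of all genes called lower and 1.63% called in either direction. At an unadjusted p under 0.05, edgeR picked 5 members, SRC higher and FERMT2, ILK, ITGA7 and LPP lower, and 13.3% of all genes. There were 13 members above 0 (9 under library totals alone) and 21 below, where 51.4% of all genes were below, with a median of -0.038, against -0.014 for all genes. Over the fits without 1 library the members' median lay between -0.13 and -0.033. The libraries did not overlap for 3 members that were higher and 7 that were lower, where 15.5% and 18.5% of all genes did the same. Markers of other cell types moved with the knockdown in this fraction too. The 6 mural cell markers summed to 77.8 and 94.9 CPM in knockdown polysomes, against 107 and 143 CPM in scramble polysomes, with KCNJ8 and ABCC9 at 0, and DESeq2 called CSPG4 and MCAM lower. RGS5, another mural marker, went the other way, with 21.1 and 24.1 CPM in knockdown polysomes, against 15.6 and 14.9 CPM in scramble polysomes. The epithelial markers summed to 2243 and 2274 CPM in knockdown polysomes, against 3136 and 3210 CPM in scramble polysomes. All 6 that were tested lay below 0 in both fractions, 4 of them without overlap in polysomal RNA, and neither tool called any. In total RNA the mural sums were 385 and 443 CPM in knockdown cells, against 479 and 462 CPM in scramble cells, and the epithelial sums 1434 and 1176 CPM, against 1381 and 1409 CPM. The part of these markers in the values of FERMT2, ITGA7 and ILK was not tested.

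FERMT2 (chr14:52857268-52952435, minus strand) had 84.1 and 88.3 CPM in knockdown polysomes, against 123 and 133 CPM in scramble polysomes. In total RNA it had 102 and 111 CPM in knockdown cells, against 126 and 130.0 CPM in scramble cells. Both knockdown libraries lay below both scramble libraries in each fraction. The polysomal log2 fold change was -0.57 ± 0.14, with an adjusted p of 0.172 by edgeR and 0.0148 by DESeq2, and in total RNA it was -0.26 ± 0.13 (adjusted p = 1, edgeR).

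ITGA7 had 2.97 and 1.44 CPM in knockdown polysomes, against 5.80 and 4.04 CPM in scramble polysomes. Its total RNA held 36.9 and 38.7 CPM in knockdown cells, against 53.3 and 50.6 CPM in scramble cells. Here too the groups did not overlap in either fraction. The log2 fold change was -1.12 ± 0.31 in polysomal RNA (adjusted p = 0.198 by edgeR, 0.0398 by DESeq2) and -0.46 ± 0.23 in total RNA (adjusted p = 1, edgeR). Leaving out 1 knockdown polysomal library at a time gave -1.81 without replicate 1 and -0.80 without replicate 2.

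ILK (chr11:6603708-6610874, plus strand) had 0.473 and 1.70 CPM in knockdown polysomes, against 5.85 and 4.28 CPM in scramble polysomes. These rest on 7 and 20 counts in knockdown cells, and 108 and 72 counts in scramble cells. In total RNA it had 3.90 and 8.50 CPM in knockdown cells, against 7.05 and 5.19 CPM in scramble cells, and these groups overlapped. The polysomal log2 fold change was -2.27 ± 0.57, with an adjusted p of 0.181 by edgeR and 0.0182 by DESeq2. Without knockdown polysomal replicate 1 it was -1.61, and without replicate 2 it was -3.47. Genes on the opposite strand cover 78.5% of the ILK exon bases, chiefly TAF10 with 68.1%, and the strand setting of the counting is not given in the sources used here. TAF10 itself had 19.5 and 60.0 CPM in knockdown polysomes, against 80.6 and 49.3 CPM in scramble polysomes. Reads of the 2 genes may not have been told apart, and the ILK values are uncertain for that reason.

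The 3 calls depended on which libraries were in the fit. With DESeq2 fitted on the 4 polysomal libraries alone, none of the 3 was called, at adjusted p-values of 0.623 for FERMT2, 0.399 for ILK and 1.00 for ITGA7. Leaving out scramble total replicate 1 or replicate 2 also ended all 3. The FERMT2 call was lost, too, without knockdown polysomal replicate 1 or scramble polysomal replicate 2, and the ILK call without knockdown polysomal replicate 1 or scramble polysomal replicate 1. That of ITGA7 was lost without either knockdown total library, knockdown polysomal replicate 2 or scramble polysomal replicate 1. Over the fits without 1 library, the log2 fold changes lay between -0.63 and -0.54 for FERMT2, -3.45 and -1.58 for ILK, and -1.78 and -0.76 for ITGA7. Other members were called in single fits of this kind. They were LPP without scramble polysomal replicate 2 (-1.39) and VASP without knockdown polysomal replicate 2 (-0.79).

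SRC and LPP also had an unadjusted p under 0.05 in polysomal RNA. SRC had 10.2 and 13.8 CPM in knockdown polysomes, against 7.97 and 8.97 CPM in scramble polysomes, a log2 fold change of 0.50 ± 0.21 (adjusted p = 0.346, edgeR). LPP had 8.98 and 11.0 CPM in knockdown polysomes, against 25.3 and 9.68 CPM in scramble polysomes, where one scramble library stood far above the other and the groups overlapped (-0.82 ± 0.36, adjusted p = 0.359, edgeR). For the abundant integrins the knockdown log2 fold changes in polysomal RNA were -0.04 ± 0.19 for ITGB1, -0.11 ± 0.16 for ITGA5, -0.05 ± 0.17 for ITGA11, -0.04 ± 0.15 for ITGA3 and -0.01 ± 0.17 for ITGB5.

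**Figure D4:**
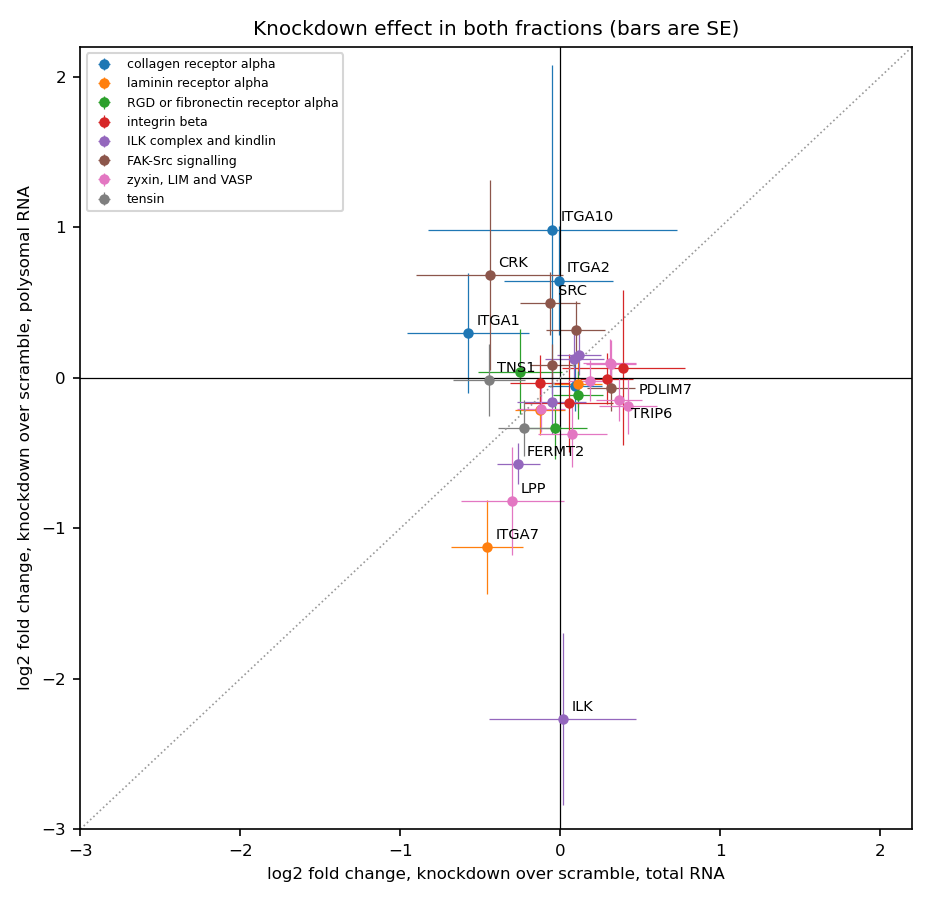
Log2 fold change of knockdown over scramble in polysomal RNA (vertical) against total RNA (horizontal) for the 34 tested members, coloured by role; bars are SE and the dotted line marks equal values. Most members lie near 0 on both axes, ILK, ITGA7, LPP and FERMT2 lie lowest in polysomal RNA, and the members with wide bars have few counts.

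The last comparison asks whether the knockdown changed how far each mRNA was on polysomes, as the interaction of knockdown and fraction. No member was called by edgeR or DESeq2. Over all genes edgeR called 0% and DESeq2 called 0.0246%. At an unadjusted p under 0.05, edgeR picked 3 members, all lower, and 6.27% of all genes. They were ILK (-2.29 ± 0.74), TRIP6 (-0.51 ± 0.20) and PDLIM7 (-0.61 ± 0.26), each with an adjusted p of 0.776. For ILK this is the test of the difference between its knockdown and scramble polysomal-to-total values, which was therefore not called.

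In this ratio 12 members were above 0 (10 under library totals alone) and 22 below, with a median of -0.15, against -0.066 and 55.9% below 0 for all genes. Over the fits without 1 library the members' median lay between -0.23 and -0.027, the bound nearer to 0 without knockdown total replicate 2. All 8 genes of the zyxin, LIM and VASP group were below 0, with a median of -0.34. For knockdown against scramble, TRIP6 and PDLIM7 were called in neither fraction, though in total RNA both had an unadjusted edgeR p under 0.05. The PDLIM7 libraries overlapped in polysomal RNA. TRIP6 had 162 and 162 CPM in knockdown polysomes, against 181 and 177 CPM in scramble polysomes, beside the total levels given above. Among the collagen receptors, ITGA1, ITGA2 and ITGA10 were above 0 (0.87 ± 0.55, 0.66 ± 0.50 and 1.03 ± 1.34) with wide errors. The range from -2.29 to 1.12 was set at its ends by ILK and CRK, both with few counts in knockdown polysomes. The ILK counts are uncertain for the reason given above.

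Other sequence features of the members are set here beside those of all tested protein-coding genes. The median coding sequence was 2338.5 nt, against 1416 nt for all genes, and the median 3' UTR was 1578 nt, against 1094 nt. The median 5' UTR was 232 nt, against 203 nt, with a median GC content of 70.7%, against 66.4%. An ATG upstream of the annotated start was present in 14 of 34 members (41.2%), against 53.3% of all genes. Within the members, rho between the polysomal knockdown difference and the number of upstream ATGs was 0.29, and 0.073 over all genes. For the other features the members' rho lay between -0.094 (5' UTR length) and 0.23 (3' UTR length). For the knockdown change in the ratio, rho with upstream ATGs was 0.078 in the members and 0.081 over all genes.

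Further genes of the same pathway were taken from a fixed list of 101 adhesion genes outside the members, of which 88 were tested. In total RNA none was called by edgeR or DESeq2, and 4 had an unadjusted edgeR p under 0.05, beside 3.68% of all genes. The smallest p-values belonged to THBS1 (thrombospondin-1, 0.78 ± 0.21) and WTIP (an ajuba-family LIM protein, 0.51 ± 0.19) above 0, and to ITGB4 (-0.58 ± 0.25) and KANK2 (-0.28 ± 0.15) below. In polysomal RNA edgeR called none of the 88 and DESeq2 called 3, beside 1.63% of all genes. At an unadjusted p under 0.05, edgeR picked 21 of them, 7 higher and 14 lower, beside 13.3% of all genes, and 61 of the 88 were below 0, beside 51.4%. GIT1, a scaffold that binds paxillin, was higher, with 89.7 and 74.2 CPM in knockdown polysomes against 47.6 and 55.4 CPM in scramble polysomes (0.67 ± 0.15, DESeq2 adjusted p = 0.00915). COL1A1, the alpha 1 chain of collagen I, was lower, with 885 and 898 CPM against 1458 and 1218 CPM in scramble polysomes (-0.59 ± 0.19, DESeq2 adjusted p = 0.0177). MFGE8, an RGD-bearing ligand of alpha V integrins, was lower too, with 147 and 148 CPM against 194 and 219 CPM in scramble polysomes (-0.49 ± 0.14, DESeq2 adjusted p = 0.0343). In the ratio none of the 88 was called by edgeR or DESeq2, and the smallest edgeR p-values were those of THBS1 (-0.95 ± 0.29), PDLIM2 (-0.91 ± 0.31), GIT1 (0.54 ± 0.21) and, on few counts, PTK2B (1.93 ± 1.07).

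Of the 20 tested genes of the talin and vinculin group, 4 were called higher and 13 lower in polysomal than in total RNA in each cell type. Of all genes 28.9% were called higher and 34.1% lower in knockdown cells, and 29.7% and 33.7% in scramble cells. TLN1 (talin-1), which activates integrins by binding beta tails, had 42.9 and 46.5 CPM in knockdown polysomes, against 505 and 669 CPM in knockdown total RNA. Scramble polysomes held 72.1 and 55.7 CPM of TLN1, against 710.1 and 672 CPM in scramble total RNA. The log2 fold changes were -3.72 ± 0.21 and -3.43 ± 0.20 for TLN1 in knockdown and scramble cells, and -2.54 ± 0.18 and -2.31 ± 0.18 for VCL (vinculin). The second parvin and PINCH genes, PARVB and LIMS2, were higher on polysomes, as PARVA and LIMS1 were under TMM scaling, at 1.27 ± 0.17 and 1.34 ± 0.20 in knockdown cells and 1.23 ± 0.17 and 1.95 ± 0.20 in scramble cells.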

How the data were processed

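Per the labels' protocols and the series' design text, RNA was extracted with phenol and chloroform, DNase-treated, enriched for poly(A) and sequenced in pairs. The submitters' processing notes name Trimmomatic 0.36, HISAT2 2.1.0, featureCounts of Subread 2.0.1 and GRCh38. Which annotation and strand setting were used for counting is unknown here. The authors deposited raw counts per gene for 8 libraries in 4 groups.

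Here, edgeR 4.0.16 (R 4.3.3) kept 16228 genes (filterByExpr), scaled them by TMM and fitted 1 robust quasi-likelihood model over the 4 groups. Calls needed a Benjamini-Hochberg adjusted p under 0.05 over all tested genes. SEs were derived from the log2 fold change and its F statistic. DESeq2 1.42.0 (Wald test) was an alternative, as were other scalings, no filter, only the groups compared, a replicate block and leaving out each library. The edgeR fit was tested on simulated data, and DESeq2 was not. CPM values use TMM-scaled library sizes. Transcript features come from 1 GENCODE v29 transcript per gene. Members named by rule are those called (at most 4 in each direction for polysomal against total RNA) and the 3 with the smallest edgeR p in each comparison. Pathway genes named by rule are those called in a knockdown comparison, otherwise the 2 smallest p-values in each direction, and the 2 largest differences in each direction between fractions. Other genes given with values, among them SRC, LPP, TAF10, TLN1, VCL, PARVB and LIMS2, were chosen by role after their values were seen. The members and lists were chosen with earlier results of these data known. The labels call the replicates biological but name no separate cultures, so the p-values reflect variation among the sequenced libraries, which may be technical. Limits for 0 counts cover counting error only.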

Additional observations from a re-analysis of the deposited data

How the results depend on the processing

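Without a filter on low counts, edgeR called 38 genes for knockdown against scramble in total RNA, 502 in polysomes and 64 in the ratio, against 0, 2 and 0, with 4 members in polysomal RNA and 1 in the ratio. DESeq2 called 26, 228 and 4 genes and 0, 3 and 0 members. Fitting only the groups compared gave 10 genes in total RNA, and library totals alone 1 gene in polysomal RNA. Leaving out 1 library gave 0 to 183 genes called in polysomal RNA (183 without knockdown polysome replicate 2) and 0 to 2 in the ratio, with 0 members in each. The median member log2 fold change between fractions was -1.84 in knockdown and -1.61 in scramble cells under library totals alone. Leaving out 1 library gave -0.95 to -0.55 in knockdown cells, with 22 to 28 members called, and -0.77 to -0.61 in scramble cells, with 23 to 28. As alternatives chosen after seeing the data, DESeq2 on the polysomal libraries alone called 12 genes and 0 members for knockdown against scramble, and DESeq2 without 1 library 48 to 721 genes and 0 to 3 members. Under library totals alone, 7 values between fractions that were called under TMM reversed: LIMS1 (-0.12), PARVA (-0.28), TRIP6 (-0.62, adjusted p = 0.0023, edgeR) and ZYX (-0.024) in knockdown cells, and LIMS1 (-0.10), PARVA (-0.26) and TRIP6 (-0.051) in scramble cells. Of the other recomputed values of single members, 804 kept their direction and side of the threshold, 46 lost the call and 7 gained it. Members not called under TMM, and not counted among these values, changed sign between fractions under library totals alone as well. They were ITGA1 and PDLIM5 in knockdown cells, and FERMT2, ITGAV, PDLIM5 and VASP in scramble cells. The cause of these changes was not tested.

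Equal replicate numbers were not shown to pair libraries: correlations of their deviations lay between -0.092 and 0.026. With the replicate number as a block, edgeR called 0, 3 and 0 genes in the knockdown comparisons of total RNA, polysomal RNA and their ratio, and 0 members in each. Between fractions it called 25 members in knockdown and 26 in scramble cells. ITGA10, CRK, ITGB8 and ILK rest on few polysomal counts, which limits what depth can show for them.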

Other observations

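Further genes around the integrins also split between the fractions. Of 11 integrin regulators and partners, 10 were called higher and 1 lower in polysomal than in total RNA in both cell types under TMM scaling, but CAV1 and CD9, and CD47 in knockdown cells, turned below 0 under library totals alone (edgeR, adjusted p under 0.05, beside 28.9% of all genes called higher in knockdown and 29.7% in scramble cells). LGALS1 (galectin-1), a secreted lectin that binds integrin glycans, had 5602 and 7485 CPM in knockdown polysomes, against 1367 and 989.5 CPM in knockdown total RNA. Scramble polysomes held 8939 and 6601 CPM, against 1023 and 1063 CPM in scramble total RNA. The tetraspanins CD151 and CD81, which hold laminin-binding integrins in membrane domains, had log2 fold changes of 1.28 ± 0.22 and 1.19 ± 0.23 in knockdown cells, and 1.85 ± 0.23 and 1.59 ± 0.24 in scramble cells. NEDD9, a p130Cas relative, had 25.2 and 27.2 CPM in knockdown polysomes against 3.83 and 4.38 CPM in knockdown total RNA, and 27.1 and 26.6 CPM in scramble polysomes against 3.17 and 3.70 CPM in scramble total RNA. Its direction was thus opposite to that of BCAR1.

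Of 18 tested matrix ligands of integrins, 2 were called higher and 12 lower in polysomal RNA in knockdown cells, and 3 higher and 13 lower in scramble cells (beside 28.9% and 34.1% of all genes in knockdown cells, and 29.7% and 33.7% in scramble cells), where MFGE8, 1 of the 3, turned below 0 under library totals alone. LAMA5, the laminin alpha 5 chain, was at -4.95 ± 0.24 and -4.68 ± 0.23 in knockdown and scramble cells, and COL1A1 at -2.21 ± 0.19 and -1.51 ± 0.19. TGFB1 and FBLN5 (fibulin-5) were higher in both, at 1.54 ± 0.21 and 1.42 ± 0.43 in knockdown cells and 1.34 ± 0.21 and 1.94 ± 0.43 in scramble cells. VCAM1 and ITGA9 had 0 counts in all 4 polysomal libraries. In total RNA VCAM1 had 44 counts over both knockdown libraries and 52 over both scramble libraries, and ITGA9 had 35 and 29.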
